A study of Mus musculus with 11 samples.

Results

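Mouse embryonic stem (ES) cells labelled as overexpressing plakoglobin at a high level were compared with wild-type ES cells, both grown in serum/LIF on tissue-culture plastic and both profiled as single cells. Plakoglobin is the product of Jup, a catenin of desmosomes and adherens junctions and a close relative of beta-catenin. The comparison took 2 of the 11 samples of the series, 1 library a side, with 2153 cells in the library labelled JupHigh and 725 cells in wild type. A barcode counted as a cell when it held at least 1000 unique molecular identifiers (UMIs, each marking 1 captured transcript) and at most 0.9 detected genes per UMI.

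The JupHigh line carries, per the labels, constitutive expression from the CAG promoter, and its genotype is given as PGHIGH. Wild type is the E14 line. The parent line of the JupHigh cells is not named, so line and transgene cannot be told apart. Serum/LIF is a medium of animal serum with the cytokine LIF, in which ES cells fluctuate between states. Reference libraries set beside the comparison were the line labelled JupLow (genotype PGLOW, same promoter, serum/LIF on plastic, 1200 cells) and E14 in 2i/LIF on plastic (2889 cells). The 2i/LIF medium adds inhibitors of MEK and GSK3 to LIF. All 4 libraries were made with inDrop, a droplet method that reads transcripts near their 3′ end. The question posed by the design is whether plakoglobin overexpression restores naive pluripotency under these metastable conditions.

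Naive pluripotency is the state of the early epiblast, and its network of transcription factors includes Nanog, Esrrb, Klf2, Klf4, Tbx3, Tfcp2l1 and Zfp42 (Rex1). Cells leaving it pass through a formative state marked by Pou3f1 (Oct6), Otx2, Fgf5 and de novo DNA methyltransferases, while Pou5f1 (Oct4) and Sox2 are shared by both states. ES cultures in serum also hold some cells with primitive endoderm transcripts, and spread cells on stiff plastic express actin-binding, keratin and YAP target genes.

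The library labelled JupHigh held 4310792 UMIs in cells with a median of 1902 per cell, and wild type held 2017950 with a median of 2361. Above 3 times the median lay 0 and 24 cells. Under 500 UMIs lay 1344 of the 4688 barcodes of JupHigh, with 579424 UMIs, and 5908 of the 8317 of wild type, with 2170799. In wild type, these low barcodes thus held more UMIs than the cells. Their part in the differences below was not tested. No barcode was shared between any of the 4 libraries. Mitochondrial transcripts took 30.4% of the UMIs in JupHigh and 19.8% in wild type, against 22.6% in JupLow and 19.3% in 2i/LIF. Those shares include mt-Nd4 and mt-Co3, for which the wild-type table has no column. Over the mitochondrial genes with a column in every table, they were 29.0% and 19.8% in JupHigh and wild type. The totals behind these 2 shares leave out the other mitochondrial genes. By the same genes, cells with over 30% mitochondrial UMIs made up 38.2% and 28.4% of JupHigh and wild type. With 1 library a side there is no replicate check and no test. A difference is given as the log2 ratio of summed counts per 1000000 UMIs (CPM), JupHigh over wild type, with an exact 95% interval that covers counting error only. A gene counted as higher or lower at a ratio of 2-fold or more, and a list's median is taken over all its members compared. A list's median ratio to JupLow is taken over its members at 20 CPM in the higher of JupHigh and wild type.

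The wild-type table was counted differently from the JupHigh table: 3997 genes with 4.20% of the JupHigh UMIs and 2690 genes with 1.16% of the wild-type UMIs had no column or no UMI on the other side and were left out. This left 17022 genes, of which 7139 reached 20 CPM in the higher library. A gene could pass this limit through the side where it is high, which sets counts of list members in part. Of the 7139 genes, 429 (6.01%) were higher and 1029 (14.4%) were lower in JupHigh, with a median log2 ratio of -0.18. The split depended on scaling. With TMM factors it was 726 higher and 722 lower with a median of 0.16. Leaving mitochondrial transcripts out of the totals gave 691 and 982 with a median of 0.03. Leaving out barcodes over 30% mitochondrial gave 647 and 974 with a median of -0.04. Ratios of 8-fold or more were met by 7.97% of genes that another annotated gene overlaps and by 2.20% of the 3131 genes without such an overlap. Of those extreme ratios, 179 of 311 among overlapped genes, but 13 of 69 among the others, were within 2-fold of JupLow. Among genes without an overlap, 129 (4.12%) were higher and 340 (10.9%) were lower. JupLow values therefore stand beside the results, since its table shares 20029 gene columns with that of JupHigh, against 19166 for wild type. Both ratios share the JupHigh library and are not independent. In that ratio, 183 of 6948 genes (2.63%) were higher and 582 (8.38%) were lower in JupHigh. Past 2-fold against both libraries were 124 genes (1.74%) higher and 467 (6.54%) lower.

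**Figure D1:**
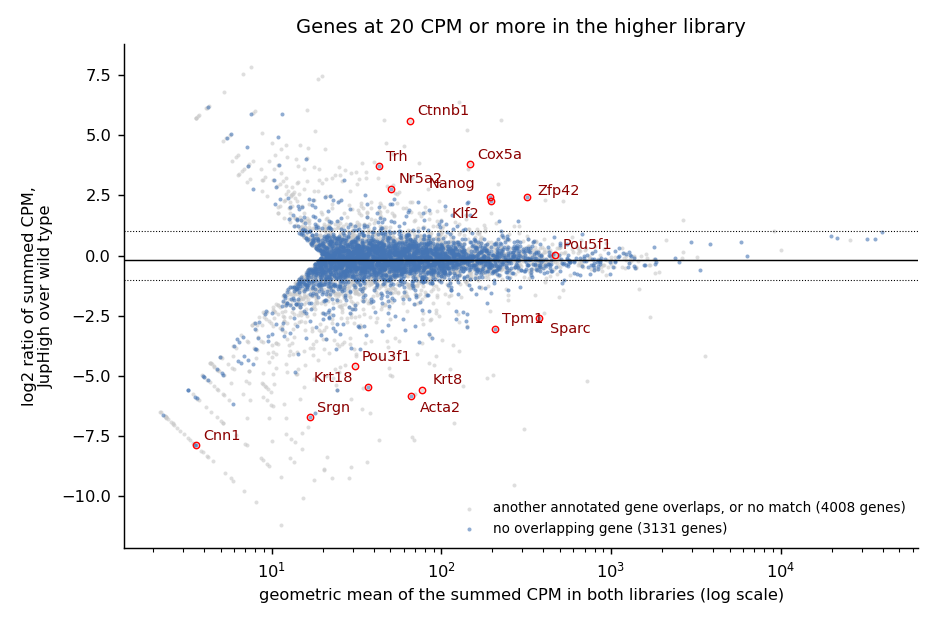
Each point is 1 of the 7139 genes that reached 20 CPM on at least 1 side, with the geometric mean of its summed CPM on a log axis and its log2 ratio of JupHigh over wild type on the vertical axis; dotted lines mark 2-fold, the solid line marks the median of -0.18, and blue points are the 3131 genes without an overlapping gene. Nanog, Zfp42 and Klf2 lie above the band of most genes and Acta2, Krt18 and Sparc below it, while the points of Ctnnb1 and Cox5a, far above, are genes that another gene overlaps.

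Jup itself, a protein-coding gene on chromosome 11 (100368958 to 100397763, minus strand, GRCm38 with GENCODE M21), gave 206 UMIs or 47.8 CPM in JupHigh and 74 UMIs or 36.7 CPM in wild type. JupLow had 37.9 CPM and 2i/LIF 46.7 CPM. Against wild type the log2 ratio came to 0.38 (-0.01 to 0.79), an interval that includes 0, and it excluded 0 in 8 of the 11 settings for which it was computed. After each cell was thinned to 1000 UMIs, a Jup UMI was found in 4.64% of JupHigh and 3.17% of wild-type cells. The label is thus not clearly borne out by the Jup counts. Whether a transcript of the transgene would be counted as Jup by 3′ reads is not given in the sources used here.

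Naive genes were higher, with more members past 2-fold upward than any other list. Of the 18 members, 16 reached 20 CPM, of which 11 were higher in JupHigh and 0 lower, against 6.01% and 14.4% of all genes. The limit applies to the higher library, and Nr5a2, Tbx3, Tcl1 and Dppa3 passed it through JupHigh alone. The count of higher members is thus set in part by the limit. The median log2 ratio over all 18 members, which does not use the limit, was 2.09, beside -0.29 over all 17022 genes compared. Against JupLow the median over the members at 20 CPM was 1.74. Of these, 10 were 2-fold higher than both wild type and JupLow, against 1.74% of all genes. Of the 12 members without an overlapping gene, 9 were higher, against 4.12% of such genes, with a median of 2.19.

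Nanog, the homeodomain factor that sustains self-renewal, stood at 450 CPM in JupHigh, 82.8 in wild type, 92.4 in JupLow and 539 in 2i/LIF. Its ratio to wild type was 5.44-fold (log2 2.44, 2.21 to 2.68), from 1939 and 167 UMIs. Zfp42, a zinc-finger gene long used as a reporter of the naive state, stood at 739, 137, 239 and 475 CPM in the same order, a log2 ratio of 2.43 (2.26 to 2.62). JupHigh was thus far above wild type and JupLow for both genes, below 2i/LIF for Nanog and above it for Zfp42. Their promoters are shown because they hold letters that match the motifs of OCT4 and SOX2, and the 250 bases before the RefSeq start (GRCm38.p6) are printed 5′ to 3′ on the gene's strand. For Nanog (chr6:122707239-122707488, plus strand) the capitals mark the composite OCT4-SOX2 motif, TTTGCAT followed after 1 free base by ACAATG, whose first base lies 75 bases before the start. For Zfp42 (chr8:43307010-43307259, minus strand) they mark the octamer ATTTGCAT, 186 bases before the start.
Nanog: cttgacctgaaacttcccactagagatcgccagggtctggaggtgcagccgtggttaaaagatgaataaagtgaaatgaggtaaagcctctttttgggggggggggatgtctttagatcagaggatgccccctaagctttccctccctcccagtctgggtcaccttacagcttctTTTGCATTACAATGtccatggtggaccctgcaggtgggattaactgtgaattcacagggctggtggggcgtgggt
Zfp42: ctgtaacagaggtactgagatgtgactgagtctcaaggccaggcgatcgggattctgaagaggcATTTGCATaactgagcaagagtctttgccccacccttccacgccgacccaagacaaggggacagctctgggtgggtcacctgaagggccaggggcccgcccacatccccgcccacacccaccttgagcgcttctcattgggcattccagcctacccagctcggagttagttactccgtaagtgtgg
On either strand, the composite was found in 2 of 32536 such stretches (0.00615%), both belonging to the 2 listed starts of Nanog, and the octamer in 526 (1.62%). Of the 12 naive genes in the RefSeq promoter table, Nanog alone held the composite and Zfp42 alone the octamer in this window. A match describes the letters only and is no measurement of binding.

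The Krüppel-like factors differed among themselves. Klf4, a LIF-dependent factor, stood at 303 CPM in JupHigh, 66.9 in wild type, 60.1 in JupLow and 238 in 2i/LIF, a log2 ratio to wild type of 2.18 (1.92 to 2.44). Klf2, which MEK inhibition is known to stabilise, stood at 428, 90.2, 191 and 500 CPM, with log2 ratios of 2.25 (2.03 to 2.47) to wild type and 1.16 to JupLow. Klf5 stood at 138, 147, 107 and 102 CPM, a log2 ratio of -0.09 (-0.29 to 0.12) that changed sign with the settings (-0.11 to 0.22). Klf5 was thus near its wild-type level while Klf2 and Klf4 were over 4-fold above theirs, at 4.75-fold and 4.53-fold.

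The nuclear receptors of the network were all higher. Esrrb, an orphan receptor downstream of GSK3 inhibition, stood at 308 CPM in JupHigh, 66.4 in wild type, 78.2 in JupLow and 318 in 2i/LIF (log2 ratio to wild type 2.21, 1.95 to 2.48). Nr5a2, which binds the Pou5f1 promoter, stood at 132, 19.3, 28.1 and 84.5 CPM (2.77, 2.31 to 3.28). Nr0b1 (Dax1), a partner of Esrrb and Nr5a2 on the X chromosome, stood at 158, 33.7, 43.4 and 72.1 CPM (2.23, 1.87 to 2.61). For Nr5a2 and Nr0b1 the JupHigh level exceeded that of 2i/LIF cells. Tfcp2l1, a LIF and 2i target, rested on a gene that another gene overlaps and stood at 205, 21.8, 28.8 and 256 CPM (3.23, 2.79 to 3.70). Tbx3, also overlapped, stood at 51.5, 19.8, 12.5 and 105 CPM (1.38, 0.89 to 1.90). Its log2 ratio was 2.61 without the barcodes rich in primitive endoderm transcripts (3 or more such UMIs per 1000), most of which were wild-type cells.

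Among the markers that are not transcription factors of the core, Dppa5a, an RNA-binding protein and the most abundant member, stood at 920 CPM in JupHigh, 489 in wild type, 428 in JupLow and 911 in 2i/LIF. Its log2 ratio of 0.91 (0.81 to 1.02) was short of 2-fold, as was that of Fgf4, the growth factor that drives exit from the naive state, at 0.97 (0.51 to 1.45). With TMM factors both were past 2-fold, at 1.22 and 1.28, and without mitochondrial transcripts in the totals at 1.12 and 1.17. Tcl1, an activator of AKT, was higher (2.01, 1.30 to 2.80, from 155 and 18 UMIs). Dppa3 (Stella), expressed in a subset of ES cells, was higher on few counts (2.00, 1.17 to 2.95, from 111 and 13 UMIs) but within 2-fold of JupLow (0.51). Dppa3 lies close to Nanog on chromosome 6, as does the glucose transporter gene Slc2a3, whose log2 ratio was 0.15 (0.04 to 0.26). Prdm14 and Zfp57 stayed under 20 CPM, at 3.94 and 10.4 CPM in JupHigh.

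**Figure D2:**
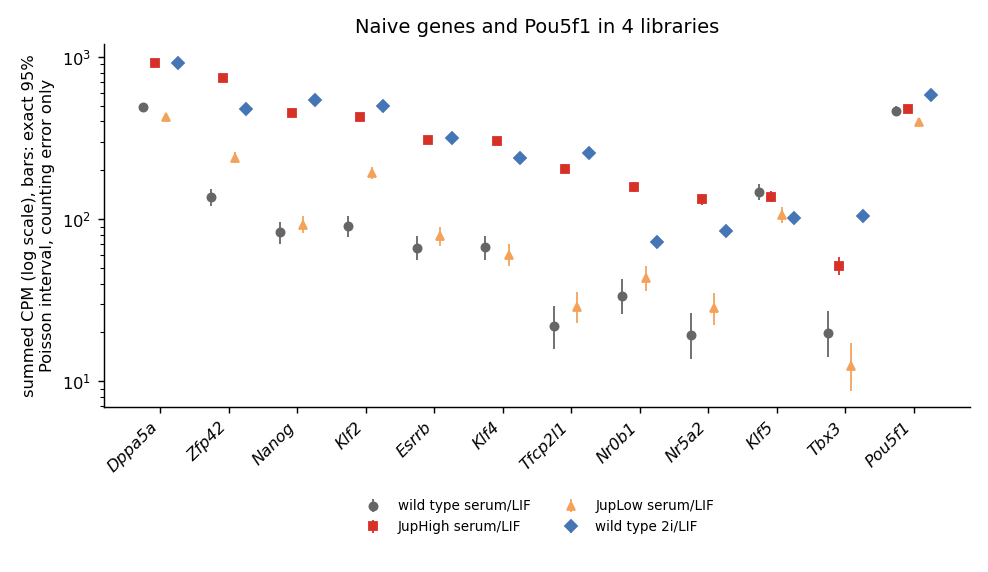
Summed CPM of 11 naive genes and Pou5f1 in the 4 libraries on a log axis, 1 point per library, with bars for the exact 95% Poisson interval of counting error. Apart from Klf5 and Pou5f1, the JupHigh squares lie well above wild type and JupLow and close to or above the 2i/LIF diamonds; Tbx3 in JupHigh, at 51.5 CPM, lies between wild type at 19.8 and 2i/LIF at 105.

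Most cells of the JupHigh library held naive transcripts. After thinning to 1000 UMIs, 93.7% of JupHigh cells (92.6% to 94.7%) and 66.5% of wild-type cells (62.9% to 69.9%) held a UMI of a naive gene, against 63.1% in JupLow and 95.7% in 2i/LIF. Without thinning the shares were 97.7% and 85.4% in JupHigh and wild type. The median cell held 4 naive UMIs in JupHigh and 1 in wild type, and 5 or more were held by 40.0% and 4.28%. The variance of naive UMIs between cells, divided by their mean, was 1.78 in JupHigh, 1.67 in wild type, 2.0 in JupLow and 1.33 in 2i/LIF. At least 2 of the 18 naive genes were detected together in 79.2% of JupHigh cells (77.5% to 80.9%), 29.1% of wild-type cells (25.8% to 32.6%), 31.1% of JupLow cells and 81.7% of 2i/LIF cells. For single genes the shares of thinned cells were 33.3% and 8.0% for Nanog, 47.0% and 10.3% for Zfp42, 25.4% and 6.48% for Esrrb, and 12.1% and 13.7% for Klf5. Barcodes under 500 UMIs, which can hold free RNA and poor cells, carried 5770 CPM of naive transcripts in JupHigh and 1740 in wild type, against 4096 and 1305 CPM in cells. No cell type without these genes was defined in either library, so a background share could not be set.

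**Figure D3:**
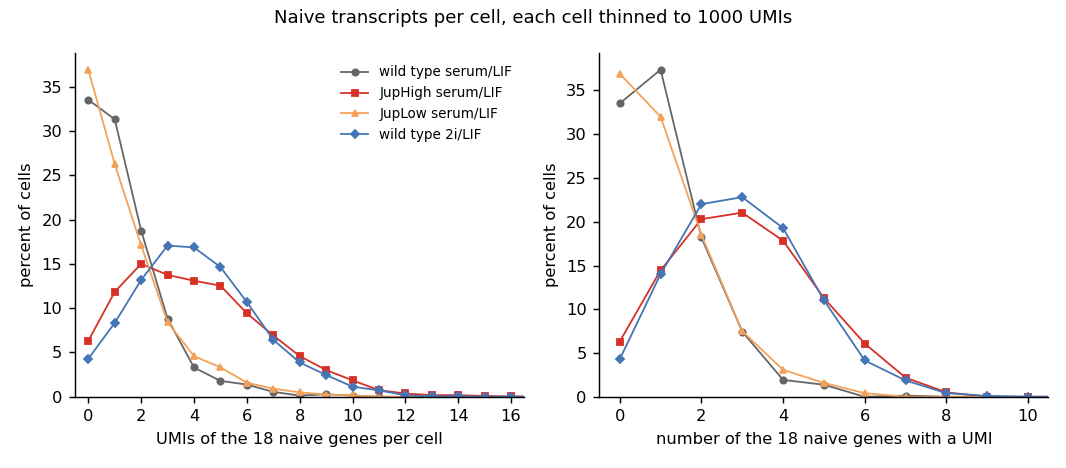
Left, percent of cells by the number of UMIs of the 18 naive genes, and right, by the number of those 18 genes with a UMI, with every cell thinned to 1000 UMIs and 1 line per library. Wild type and JupLow peak at 0 or 1 naive UMIs, while JupHigh and 2i/LIF have a median of 4, and 58.9% of JupHigh against 10.9% of wild-type cells had a UMI of 3 or more of the genes.

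Genes of pluripotency in general stayed within 2-fold: 0 of the 9 members compared were higher or lower, beside 6.01% and 14.4% of all genes, with a median of 0.03 whose sign depended on the settings (-0.15 to 0.33). Pou5f1, the defining marker of ES cells, stood at 475 CPM in JupHigh and 465 in wild type, a log2 ratio of 0.03 (-0.08 to 0.14) with a sign that also depended on the settings (-0.08 to 0.34). Both Pou5f1 and Sall4 are overlapped genes. Sall4, a zinc-finger partner of Pou5f1, had 0.57 (0.43 to 0.70), and Utf1, a chromatin protein, had -0.59 (-0.71 to -0.46). Sox2 had 1519 UMIs in JupHigh but no column in the wild-type table, so it has no ratio. Its level was 352 CPM in JupHigh, 207 in JupLow and 245 in 2i/LIF.

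Formative genes were lower in part. Of 10 members at 20 CPM, 4 were lower and 1 was higher, against 14.4% and 6.01% of all genes. Pou3f1, Otx2 and Sox3 passed the limit through wild type alone, so the count of lower members is set in part by it. The median was -0.88 over the 14 members compared and -1.15 over the 4 without an overlapping gene. Of those 4, only 1, Sox3, reached 20 CPM. Pou3f1, a POU factor of the formative epiblast, stood at 6.26 CPM in JupHigh and 153 in wild type, 24.4-fold lower (log2 -4.61, -5.23 to -4.04), against 212 CPM in JupLow and 1.21 in 2i/LIF. Otx2, which directs Pou5f1 to new sites on exit, had 13.2, 36.2, 53.9 and 12.8 CPM in JupHigh, wild type, JupLow and 2i/LIF (-1.45, -1.98 to -0.93). Sox3, a neural relative of Sox2, was lower on 40 against 52 UMIs (-1.47, -2.11 to -0.85). Over the settings Otx2 ranged from -1.61 to -0.99 and Sox3 from -1.62 to -0.89, so neither was past 2-fold in every setting. Fgf5 had 0 UMIs in JupHigh and 7 in wild type and was left out. Foxd3, a forkhead factor active in both states, was higher than wild type (1.18, 0.77 to 1.61, overlapped) but within 2-fold of JupLow (0.78), and it was short of 2-fold with a mean of per-cell CPM (0.99). Pou3f1 and Otx2 are also genes that another gene overlaps, and their log2 ratios to JupLow were -5.08 and -2.03. All 4 lower members were 2-fold below JupLow too, as were 467 of the 1029 genes lower than wild type.

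The DNA methyltransferases split, and all 3 genes of the Dnmt3 family are overlapped by another gene. Dnmt3a was lower, at 33.9 CPM in JupHigh and 107 in wild type (log2 -1.65, -1.97 to -1.34), and close to the 42.6 CPM of 2i/LIF. Against JupLow, Dnmt3a, Dnmt3b and Dnmt3l had log2 ratios of -1.51, -0.88 and 0.27. Dnmt3b had 350 and 555 CPM (-0.66, -0.78 to -0.55), and 150 CPM in 2i/LIF. Dnmt3l, the cofactor of both enzymes, had 351 and 228 CPM (0.62, 0.47 to 0.77), and 26.4 CPM in 2i/LIF. JupHigh and 2i/LIF were thus alike in Dnmt3a but far apart in Dnmt3l, at 351 against 26.4 CPM. Of the demethylation genes, Tet2 was higher (1.92, 1.38 to 2.51, overlapped, and 1.46 against JupLow), and Tet1 (overlapped) had 0.79 (0.65 to 0.94).

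In single cells, naive UMIs without formative ones were found in 39.4% of JupHigh and 21.9% of wild-type cells at 1000 UMIs. Formative UMIs without naive ones were found in 2.69% (2.05% to 3.47%) and 21.8% (18.8% to 25.0%). Both kinds were found in 54.3% and 44.6%. In 2i/LIF, naive UMIs alone were found in 69.0% and both kinds in 26.7%. Barcodes under 500 UMIs held 1124 CPM of formative transcripts in JupHigh, beside 972 in cells, and 1253 beside 1333 in wild type. The 2i/LIF table had 2 such barcodes, too few for a level. These are thus shares of cells with a UMI, and the part of free RNA in them was not tested.

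Signalling targets differed in both directions. Of 7 WNT targets and TCF factors at 20 CPM, 3 were higher and 1 was lower, against 6.01% and 14.4% of all genes, with a median of 0.24 over 15 members. Among the 3, Sp5 and Axin2 passed 20 CPM through JupHigh alone, and 8 of the 15 members stayed under it in both libraries. The count of higher members is thus set in part by the limit. Over the 6 members without an overlapping gene, of which 2 reached 20 CPM, the median was 1.66. Sp5, a direct target of beta-catenin, stood at 79.3 CPM in JupHigh, 8.92 in wild type, 16 in JupLow and 68.1 in 2i/LIF (3.15, 2.47 to 3.92). Axin2, the feedback inhibitor of the pathway, had 34.1, 5.45, 12.5 and 74.7 CPM (2.65, 1.76 to 3.68, overlapped). Ccnd1 was higher than wild type (1.87, overlapped) but level with JupLow (-0.09). Tcf7l2 (overlapped) was lower (-1.59, -2.02 to -1.17, and -1.78 against JupLow), and Tcf7l1 (overlapped), the repressor of naive genes relieved by GSK3 inhibition, had 0.14 (-0.11 to 0.39). Cdx1 and T rested on 1 UMI in wild type and on 38 and 18 in JupHigh, ratios of 17.8-fold (log2 interval 1.59 to 9.49) and 8.43-fold (0.41 to 8.46).

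Among ERK feedback and immediate early genes, 3 of 11 were lower and 0 higher, beside 14.4% and 6.01% of all genes, with a list median of -0.08 that changed sign with the settings (-0.10 to 0.23, and 0.07 over the 11). The lower ones were the phosphatase genes Dusp6 (-1.82, -2.13 to -1.50) and Dusp4 (-2.92, -3.67 to -2.22) and Ier3 (-2.75, -3.73 to -1.85), which against JupLow had -1.71, -2.43 and -2.42. Spry2 and Spry4, also ERK feedback inhibitors, had 0.10 and 0.12, and Etv5 had 0.82. Of the Id genes, which BMP and serum induce and which block differentiation, Id1 was lower (-1.41, -1.70 to -1.13) and Id2 was lower (-2.13, -2.61 to -1.67), while Id3 was higher (1.20, 0.93 to 1.49). Id3 was level with JupLow (-0.22), whereas Id1 and Id2 were lower than JupLow too (-2.59 and -3.27). LIF pathway genes were mostly within 2-fold, with 1 of 8 lower, near the 14.4% of all genes. It was Junb (-1.90, -2.32 to -1.49, overlapped, and -1.67 against JupLow), beside Socs3 at 0.45 and Stat3 at 0.25.

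Genes of actin and contractile proteins were lower almost throughout. Of 14 members at 20 CPM, 13 were lower and 0 higher, against 14.4% and 6.01% of all genes and the most lower members of any list, with a median of -2.99 over 15 members. Acta2 and Tagln passed the limit through wild type alone. All 13 were 2-fold lower than JupLow as well, as were 467 of the 1029 genes lower than wild type. Over the members at 20 CPM, the median log2 ratio was -3.01 to wild type and -3.16 to JupLow. Acta2, smooth muscle actin, stood at 8.82 CPM in JupHigh, 499 in wild type, 552 in JupLow and 0.36 in 2i/LIF, 56.6-fold lower than wild type (log2 -5.82, -6.33 to -5.36). Tagln (transgelin, overlapped) had 5.10, 235, 613 and 0.24 CPM (-5.53, -6.22 to -4.91). Tpm1, a tropomyosin of actin filaments, had 71.9, 589, 661 and 41.4 CPM (-3.03, -3.22 to -2.85). Flna, a filamin that links actin filaments, was at the limit of 2-fold, at -1.01 (-1.18 to -0.85), and short of it with TMM factors (-0.70). The exception was the alpha-actinin gene Actn4 (overlapped), at 0.65 (0.41 to 0.89), while it was below JupLow at -0.63. Per cell, 3 or more UMIs of the list were held by 4.04% of JupHigh cells (3.25% to 4.96%) and 31.7% of wild-type cells (28.3% to 35.3%) at 1000 UMIs, and by 40.8% in JupLow. Barcodes under 500 UMIs carried nearly the same level of these transcripts as cells, 706 against 654 CPM in JupHigh and 2972 against 3090 in wild type, so the part of free RNA in these shares was not tested.

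Keratins and desmosome genes were lower beside them, in 4 of 6 members at 20 CPM, against 14.4% of all genes. Krt8, Krt18 and Dsp passed the limit through wild type alone, so this count is set in part by it. Krt8 and Krt18, the paired keratins of simple epithelia, lie next to each other on chromosome 15. Krt18 stood at 5.57 CPM in JupHigh, 247 in wild type, 299 in JupLow and 0.84 in 2i/LIF (-5.47, -6.13 to -4.88), and Krt8 (overlapped) at 11.1, 531, 544 and 12.7 CPM (-5.57, -6.02 to -5.16). Dsp, desmoplakin, which binds plakoglobin in desmosomes, had 3.25 and 55.0 CPM in JupHigh and wild type (-4.08, -5.00 to -3.28, overlapped). Pkp2, a plakophilin of the same plaque, had -0.96 (-1.38 to -0.53), and -1.15 over cells of 500 UMIs or more. Of the cadherin genes, Cdh1 (E-cadherin) had -0.52 (-0.66 to -0.37), and -1.05 against JupLow. The alpha-catenin gene Ctnna1 (overlapped) had -0.60 (-0.72 to -0.48). Ctnnb1, which encodes beta-catenin, had 456 CPM in JupHigh, 9.42 in wild type and 574 in JupLow. Its ratio to wild type of 48.4-fold stood beside a log2 ratio of -0.33 to JupLow, and the gene is overlapped by another. Vcl (vinculin, overlapped) likewise had 1.69 against wild type and -1.59 against JupLow.

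YAP and TEAD targets were lower in 4 of 7 members and higher in 0, against 14.4% and 6.01% of all genes, with a median of -1.28. The median was -0.68 without the endoderm-rich barcodes, -0.97 with TMM factors and -2.14 over cells of 2000 UMIs or more. Ccn1 (Cyr61), a secreted matrix protein and a standard readout of YAP, stood at 24.1 CPM in JupHigh, 148 in wild type, 102 in JupLow and 7.0 in 2i/LIF (-2.62, -2.95 to -2.29). Its relative Ccn2 (Ctgf, overlapped) had 45.9 and 111 CPM in JupHigh and wild type (-1.28, -1.56 to -1.0). Without the endoderm-rich barcodes Ccn1 had -1.61 and Ccn2 -0.68, and against JupLow they had -2.08 and -0.90. Ajuba and Amotl2 had -0.53 and -0.93, short of 2-fold. The stretch before the Ccn1 start (chr3:145649986-145650235, minus strand, RefSeq, GRCm38.p6) is shown because it holds the TEAD motif GGAATG, in capitals, on the opposite strand, starting 103 bases before the start.
Ccn1: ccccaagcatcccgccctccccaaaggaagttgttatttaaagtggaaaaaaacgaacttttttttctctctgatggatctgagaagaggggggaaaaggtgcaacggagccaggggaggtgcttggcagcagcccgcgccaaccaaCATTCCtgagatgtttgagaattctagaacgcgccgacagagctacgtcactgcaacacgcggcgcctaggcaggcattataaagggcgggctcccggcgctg
The motif was found on either strand in 12.6% of all such stretches and in those of 6 of the 9 list genes in the table. It is a short motif, and a match is no measurement of binding.

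Of matrix and integrin genes, 9 of 17 were lower, against 14.4% of all genes, and 1 was higher, near the 6.01% of all genes, with a median of -1.61, against -0.54 in the ratio to JupLow. Without the endoderm-rich barcodes the median was -0.56, and over the 6 members without an overlapping gene it was -2.62. Itga3, the laminin-binding integrin alpha-3, had 7.66, 111 and 153 CPM in JupHigh, wild type and JupLow (-3.86, -4.44 to -3.33), and the integrin Itgb1 had -1.61 (-1.80 to -1.42). Both were also lower than JupLow (-4.32 and -1.83). Serpinh1, the collagen chaperone, had -3.59 (-3.93 to -3.27), -2.28 without the endoderm-rich barcodes and -2.27 against JupLow. Spp1 (osteopontin, overlapped) was the member that was higher, at 1.91 (1.62 to 2.21), and 342 CPM in 2i/LIF was above its 205 in JupHigh. Lmna, the lamin that scales with substrate stiffness, was lower (-1.51, -1.82 to -1.20), but short of 2-fold without those barcodes (-0.90) and against JupLow (-0.78). Vim had 136 CPM in JupHigh against 303 in wild type (-1.15), 143 in JupLow and 457 in 2i/LIF, and it too was short of 2-fold without those barcodes (-0.83).

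**Figure D4:**
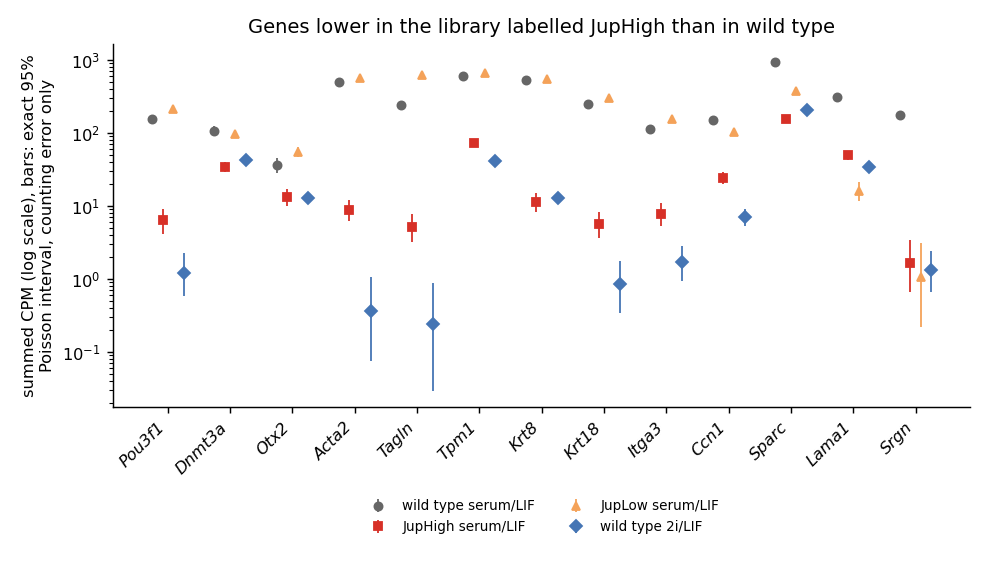
Summed CPM of 13 genes in the 4 libraries on a log axis, with exact 95% Poisson intervals of counting error. Formative, actin and keratin genes are high in wild type and JupLow and low in JupHigh, while the endoderm genes Srgn and Lama1 are high in wild type alone, at 172 and 304 CPM.

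Primitive endoderm transcripts were lower than wild type in 12 of 13 members at 20 CPM, against 14.4% of all genes. Srgn passed the limit through wild type alone. The median was -3.45 over the 16 members compared. Over those at 20 CPM, the median ratio was -3.12 to wild type but -0.33 to JupLow. Wild type stood above the other libraries compared: the summed level of the list was 2902 CPM in wild type, 515 in JupHigh, 893 in JupLow and 467 in 2i/LIF. JupHigh was also below JupLow in part, since 5 of the 13 were 2-fold lower than in both, against 6.54% of all genes. After thinning, 3 or more endoderm UMIs were held by 1.63% of JupHigh, 15.3% of wild-type and 8.5% of JupLow cells. Srgn, a proteoglycan of these cells, had 1.62, 172, 1.04 and 1.33 CPM in JupHigh, wild type, JupLow and 2i/LIF (-6.73, -8.06 to -5.67, from 7 and 348 UMIs). The factors that specify the lineage, Gata4 and Gata6 (the latter overlapped), had log2 ratios of -4.37 and -3.86 to wild type and -0.32 and -0.34 to JupLow. Lama1, a basement membrane laminin, had -2.64 to wild type and 1.61 to JupLow. The top 10% of cells carried 73.8% of these transcripts in wild type, 57.0% in JupHigh and 45.3% in JupLow at 1000 UMIs. As a rate over all UMIs of a cell, without thinning, at least 3 endoderm UMIs per 1000 were held by 79 wild-type cells (10.9%) and 11 JupHigh cells (0.51%). Without those barcodes, which were chosen on the list itself, the median was -2.08, Gata4 and Gata6 had -2.27 and -2.08, and Lama1 turned to 0.19, while the naive median was 2.12, the actin median -2.92 and the formative median -0.84. Other lineages gave few transcripts. Fibroblast markers summed to 6.50 CPM in JupHigh and 37.7 in wild type, blood and endothelial markers to 21.8 and 39.1, neural markers to 41.8 and 95.1, and trophoblast markers to 34.1 and 46.6. Mesoderm and mesendoderm markers were nearly level, at 114 and 127 CPM. Nes (nestin) was the neural member that was lower (-4.08, -4.96 to -3.30, and -4.63 against JupLow).

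By size of ratio, among genes with no overlapping gene and 100 CPM on the higher side, 10 genes were named as higher. Of these, 7 were members of the naive list, which made up 12 of the 3131 genes without an overlap at 20 CPM. That pool is wider than the one named from, which required 100 CPM on the higher side and 10 UMIs on the lower. The naive share of the narrower pool was not counted. The lists were chosen with earlier results of these data known. The named genes outside the naive list were Trh, Aff1 and Gm13929. Trh, the thyrotropin-releasing hormone precursor, stood at 155 CPM in JupHigh, 11.9 in wild type, 24.0 in JupLow and 256 in 2i/LIF, 13.0-fold higher than wild type (3.70, 3.12 to 4.36). A Trh UMI was found in 12.6% of JupHigh and 1.66% of wild-type cells at 1000 UMIs. Aff1, a subunit of the super elongation complex, had 2.15 (1.73 to 2.61) and 2.28 against JupLow. Genes named as lower in the same way, over all genes or over those also 2-fold below JupLow, included Car2, a carbonic anhydrase (-3.43), F3, tissue factor (-3.31), Tubb6, a beta-tubulin (-3.28), Lrp2, megalin and a member of the endoderm list (-3.12), and Csrp1, a LIM protein of actin filaments (-3.09). All 5 were also at least 2-fold below JupLow, which the naming rule itself required of those named in the second way. Adamts6 and Ubxn8 were 48.6-fold and 14.9-fold lower than wild type, but their log2 ratios to JupLow were 0.74 and -0.07.

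Genes of the 2-cell-like state, a rare state of ES cultures, were higher in 3 of 3 members at 20 CPM, against 6.01% of all genes. The limit applies to the higher library, and the 7 members compared summed to 39.6 CPM in wild type and 131 in JupHigh. Members could thus pass the limit through JupHigh alone, so this count is no check on the direction. Zscan4a, Zscan4d and Zscan4f had log2 ratios of 2.09 (1.37 to 2.91), 1.68 (0.90 to 2.57) and 1.61 (0.88 to 2.41), and 3.69, 2.78 and 2.97 against JupLow. They are near-identical copies, so the division of reads among them is uncertain. Over cells of 2000 UMIs or more the ratios to wild type were 1.01, 0.51 and 0.33, and the median of the 7 members compared went from 1.68 to 0.62. Without barcodes over 30% mitochondrial that median was 0.95. Before thinning, 1 wild-type cell held 74 of the 80 wild-type UMIs of the list. The intervals of the ratios cover counting error only and not such clustering in 1 cell. The transcripts came from few cells: 2.60% of JupHigh cells (1.97% to 3.36%) and 0.41% of wild-type cells (0.09% to 1.20%) held a UMI of the list, and 10 JupHigh cells and 1 wild-type cell held 10 or more at 1000 UMIs. Polycomb genes were higher in 3 of 10 members and lower in 0, against 6.01% and 14.4% of all genes, with a median of 0.62. Only 2 of the 10 had no overlapping gene, of which 1 was higher, against 4.12% of such genes. Of the 3, 1 was 2-fold above JupLow too, as were 124 of the 429 genes higher than wild type. The median ratio to JupLow was 0.35. Epop, a PRC2-associated protein, had 1.32 (1.04 to 1.61) and 1.64 against JupLow, whereas Kdm2b (overlapped) had 2.03 and 0.15.

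Of the p53 targets, 5 of 11 were lower and 0 higher, against 14.4% and 6.01% of all genes, with a median of -0.72. Of the 5, 2 were 2-fold below JupLow too, as were 467 of the 1029 genes lower than wild type. Those were Ccng1, with -1.55 (-1.73 to -1.39) and -1.32 against JupLow, and Perp, also a junction protein, with -2.35 (-2.92 to -1.81) and -3.11. Among imprinted genes, H19, a non-coding RNA, had 429 UMIs in wild type, 477 in JupLow, 4 in 2i/LIF and 0 in JupHigh, and like Fgf5 it was left out of the ratios. The imprinted list had no stable direction, with a median of -0.79 that was 0.21 without barcodes over 30% mitochondrial, -0.44 without the endoderm-rich barcodes and -1.31 over the 6 members without an overlapping gene. Cell cycle genes stayed within 2-fold in nearly all cases: 0 of 16 G2 and M phase genes passed it, beside 6.01% of all genes higher and 14.4% lower, and 1 of 14 S phase genes was higher, near the 6.01% of all genes. It was Mcm7 (1.21, overlapped, 0.10 against JupLow). Their medians were 0.04 and 0.30, with a range over the settings of -0.05 to 0.35 and 0.20 to 0.60. Glycolysis genes had a median of -0.21 (-0.27 to 0.09 over the settings), and nuclear genes of oxidative phosphorylation had -0.10 (-0.36 to 0.21). Mitochondrially encoded transcripts had 0.66.

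The mitochondrial share, 29.0% in JupHigh and 19.8% in wild type over the genes in every table, differed along with these groups, and its part in them was not tested beyond the values that follow. Measured without barcodes over 30% mitochondrial, the naive median was 2.14, the formative median -0.95 and the actin median -2.93, and limiting that share to the genes in every table gave 2.13, -0.95 and -2.94. With mitochondrial transcripts left out of the totals they were 2.30, -0.68 and -2.78.

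**Figure D5:**
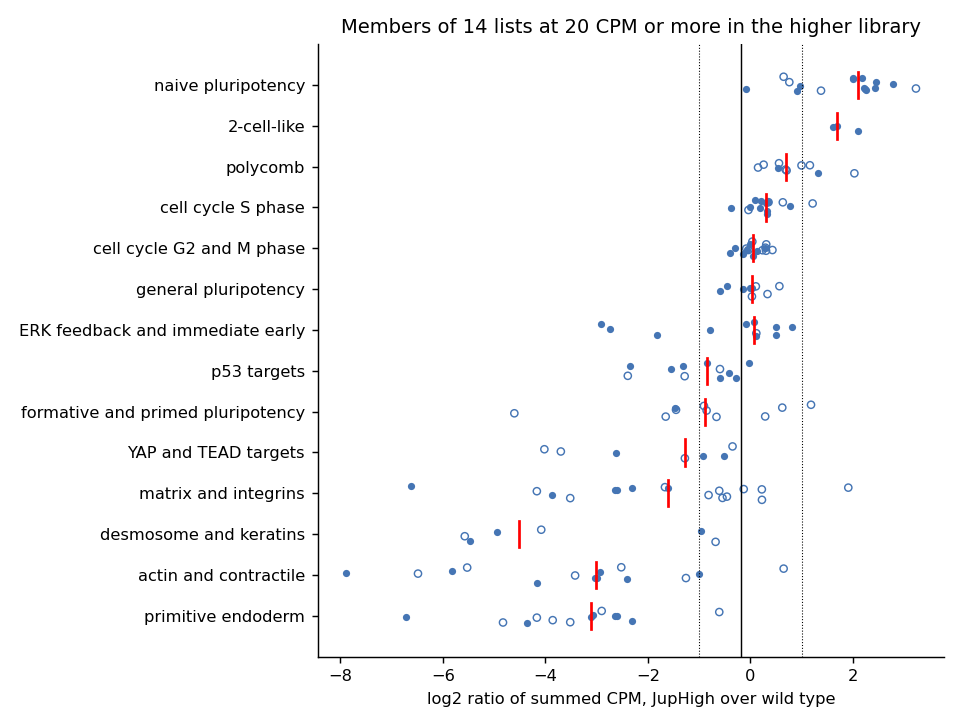
Log2 ratio of JupHigh over wild type for each member at 20 CPM or more of 14 gene lists; filled points have no overlapping gene, open points have one, red bars are the medians of the plotted members, the solid line is the median of all such genes (-0.18) and dotted lines mark 2-fold. Naive genes lie to the right with a median of 2.09, and actin, keratin and endoderm genes lie to the left.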

How the data were processed

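Single-cell libraries were made with inDrop, per the labels. The authors deposited whole UMI counts per gene and barcode, with no normalization. The submitters' processing notes name FastQC, STAR, featureCounts, DESeq2 and Scanpy and the builds mm10 and GRCm38, without roles; the counting settings, strand and barcode filter are not given in the sources used here. Counts of kept barcodes were summed per library and scaled to CPM (1000000). Columns without a gene name (0.00509% to 0.246% of UMIs) were left out. Doublets were not called; barcodes above 3 times the median were dropped in an alternative. Ratios carry exact conditional binomial intervals, levels exact Poisson and shares exact binomial (Clopper-Pearson) intervals at 95%, all for counting error only. Positions and overlaps came from GENCODE M21, where 16637 names matched.

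The 33 gene lists (405 genes), the comparison and its members were chosen with earlier results of these data known. Ribosomal protein genes, picked by symbol, had a median log2 ratio of -0.25 over 81 genes. The naming rule picked, for each direction, 10 genes by size of ratio, requiring 100 CPM on the higher side and 10 UMIs on the lower, without an overlapping gene, the same for those 2-fold from JupLow too, and up to 6 members a list. The median log2 ratios of the remaining lists were 0.31 (DNA methylation machinery), -0.10 (mesoderm and mesendoderm), -0.28 (catenins and cadherins), -0.06 (lamina, LINC and vimentin), -0.52 (Id genes and BMP signalling), 0.09 (LIF receptor and STAT3 targets), -0.94 (germline), 0.14 (Myc family and Lin28), -0.01 (integrated stress and serine synthesis), -0.07 (cholesterol and fatty acid synthesis), -2.85 (desmosome and keratins), -0.24 (neural ectoderm), -1.16 (trophoblast), -3.26 (fibroblast), -1.10 (blood and endothelium) and 1.68 (2-cell-like).

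Cells were thinned to 1000 UMIs with a fixed seed. Ratios, intervals and thinning were checked on simulated counts. Python 3.11.15 with numpy 2.4.6, scipy 1.17.1, pandas 2.3.3 and matplotlib 3.10.9, and R 4.3.3 with edgeR 4.0.16 for TMM factors, were used. Alternatives changed the scaling, the barcode limits, the pseudocount and the minimum level.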

Additional observations from a re-analysis of the deposited data

Results flagged for a closer look

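Both results listed here are signals in genes that the wild-type table has no column for. The library labelled JupHigh held 76286 UMIs of mt-Nd4, a mitochondrial gene of complex I, beside 44336 in JupLow and 79592 in wild type in 2i/LIF. It held 1519 UMIs of Sox2, beside 597 in JupLow and 2029 in 2i/LIF. Neither gene can be compared with wild type in serum/LIF, and why its table has no such column was not tested.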

How the results depend on the processing

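No paired analysis was possible because this comparison has 1 library a side and no test. The 429 higher and 1029 lower genes became 129 and 340 over genes without an overlapping gene, 1304 and 4683 with no minimum level, and 112 and 254 with a minimum of 100 CPM. The higher genes numbered 726 with TMM factors, 691 with mitochondrial transcripts left out of the totals and 647 without barcodes over 30% mitochondrial. With a pseudocount of 10 CPM the medians were 1.20 for naive, -2.24 for actin and -2.24 for primitive endoderm genes. Without endoderm-rich barcodes the endoderm median was -2.08 and Lama1 reversed to 0.19. The trophoblast median, over 6 low genes, reversed from -1.16 to 0.024 without barcodes over 30% mitochondrial, and to 0.012 where that share was taken over the genes in every table. The share of cells with a naive UMI was 99.4% in JupHigh and 79.0% in wild type at 2000 UMIs, and 97.7% and 85.4% without thinning. The share with formative UMIs alone was 0.418% and 17.1% at 2000 UMIs, and 1.39% and 11.0% without thinning. Of 1368 recomputed values, 1184 moved by less than the error of counting, taken as the mean arm of the interval (for a list, the median over its members; for shares of cells, within the interval; for counts of genes, within 1.5 times), 181 moved by more and the 3 named above changed sign from 2-fold or more. Among the other values, 48 changed sign from a main value under 2-fold, such as the Id gene median at 0.14 over members at 20 CPM. The 4 settings named for mitochondrial and endoderm-rich barcodes were chosen after seeing the data. A pseudocount pulls low genes toward 0, and members on few UMIs, such as Cdx1, T and Dppa3, are limited by depth.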
